A study of Mus musculus with 12 samples.

Results

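Fatty acid oxidation was described here through 37 genes listed for acyl-CoA activation, the carnitine shuttle and mitochondrial and peroxisomal beta oxidation. The list was chosen with earlier results of these data known. All 37 were found by symbol among the 23997 rows of the deposited gene table. Expression was read in cumulus cells, somatic cells of the follicle that feed and enclose the oocyte. The donors were C57BL/6J females. The 4 groups were wild type (WT) at 3 months, ClpP-/- (KO) at 3 months, WT at 6 months and KO at 6 months, with 3 mice each. Each mouse of all 4 groups was primed with pregnant mare serum gonadotropin (5 IU), and each library was made from 100 pooled cells of 1 mouse. ClpP is a protease of the mitochondrial matrix. The labels give the genotype as the loss of both copies and name no tissue-restricted driver.

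Fatty acids reach beta oxidation as acyl-CoA esters, made by the ACSL ligases. Long chains enter the matrix as carnitine esters, with CPT1 acting at the outer and CPT2 at the inner mitochondrial membrane. Each turn of the cycle in the matrix then runs through a dehydrogenase, a hydratase, a second dehydrogenase and a thiolase. The electrons of the first step pass through the electron transfer flavoprotein to the respiratory chain, and peroxisomes shorten very long and branched chains with their own enzymes. In the cumulus-oocyte complex, beta oxidation is known for its part in oocyte maturation.

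The targeted gene was read first. In FPKM (fragments per kilobase of transcript, scaled to the library's mapped fragments), Clpp was at 88.2 to 146 in WT and 1.10 to 6.63 in KO at 3 months, and at 114 to 129 in WT and 0.769 to 6.32 in KO at 6 months. The groups were apart at both ages (p = 0.1 by exact 2-sided permutation, which 3 libraries a group cannot go below). In limma, a linear model fitted here on log2(FPKM + 1) of 11196 genes, the KO minus WT difference of Clpp was -5.03 at 3 months (Benjamini-Hochberg adjusted p = 0.00872) and -5.25 at 6 months (adjusted p = 0.00279). The 3-month call was lost with a pseudocount of 0.1 (limma adjusted p = 0.0564) and with no filter on low values (limma adjusted p = 0.0918), and the 6-month call when its 6 libraries were fitted alone (limma adjusted p = 0.0547). Between 9335 and 10861 genes reached 1 FPKM per library, and the relative depths recovered from the low values lay between 0.640 and 1. Markers of cumulus and granulosa cells were present throughout: none of the 12 listed was at 0 in any library, and Inha was between 2419 and 6334 FPKM. Library 3 of the 3-month KO group and library 3 of the 6-month KO group stood apart. The 9 listed markers of theca and stromal cells summed to 1256 and 1552 FPKM in them, against 5.51 to 154 FPKM in 3-month WT, 8.08 to 109 FPKM in 6-month WT, and 0.443 to 61.8 FPKM in the other KO libraries. The theca marker Insl3 was at 0 in 4 of the 12 libraries and Cyp17a1 in none. The 6 listed luteal markers, some of which theca cells also express, summed to 6711 and 9309 FPKM in these libraries and to 60.2 to 1076 FPKM in the other 10. Library 3 of the 6-month WT group was the next highest in its score over markers of other cell types, 1.43 against 2.13 and 2.65 in the KO libraries and at most 0.397 in the other 9. In pooled cells, fewer cells of a type and less RNA per cell cannot be told apart.

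Transcripts of the later steps of the pathway were far more abundant than those of its entry. FPKM is per transcript length, so levels of different genes could be compared on that scale. The 3 electron transfer genes (Etfa, Etfb, Etfdh) held 31.4% of the members' summed mean FPKM, and the 5 genes of hydration, the second oxidation and thiolysis (Hadha, Hadhb, Hadh, Echs1, Acaa2) held 28.9%. This order was reversed in both KO libraries that stood apart, where the sums of the 3 and of the 5 genes were 799 and 1134 FPKM at 3 months and 789 and 1319 FPKM at 6 months, and in library 1 of 3-month WT (505 and 528 FPKM). The 5 auxiliary enzymes for unsaturated chains (Eci1, Eci2, Ech1, Decr1, Decr2) held 24.8%, and the acyl-CoA dehydrogenases 9.11%. The 5 genes listed for peroxisomal beta oxidation held 2.40%, the carnitine shuttle 2.22% and the ACSL ligases 1.17%. Crot and Decr2, also peroxisomal, were counted with the carnitine shuttle and the auxiliary enzymes, so 2.40% is not the share of all peroxisomal members. Together the members made up between 0.208% and 0.494% of a library's FPKM outside small RNA entries.

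**Figure D1:**
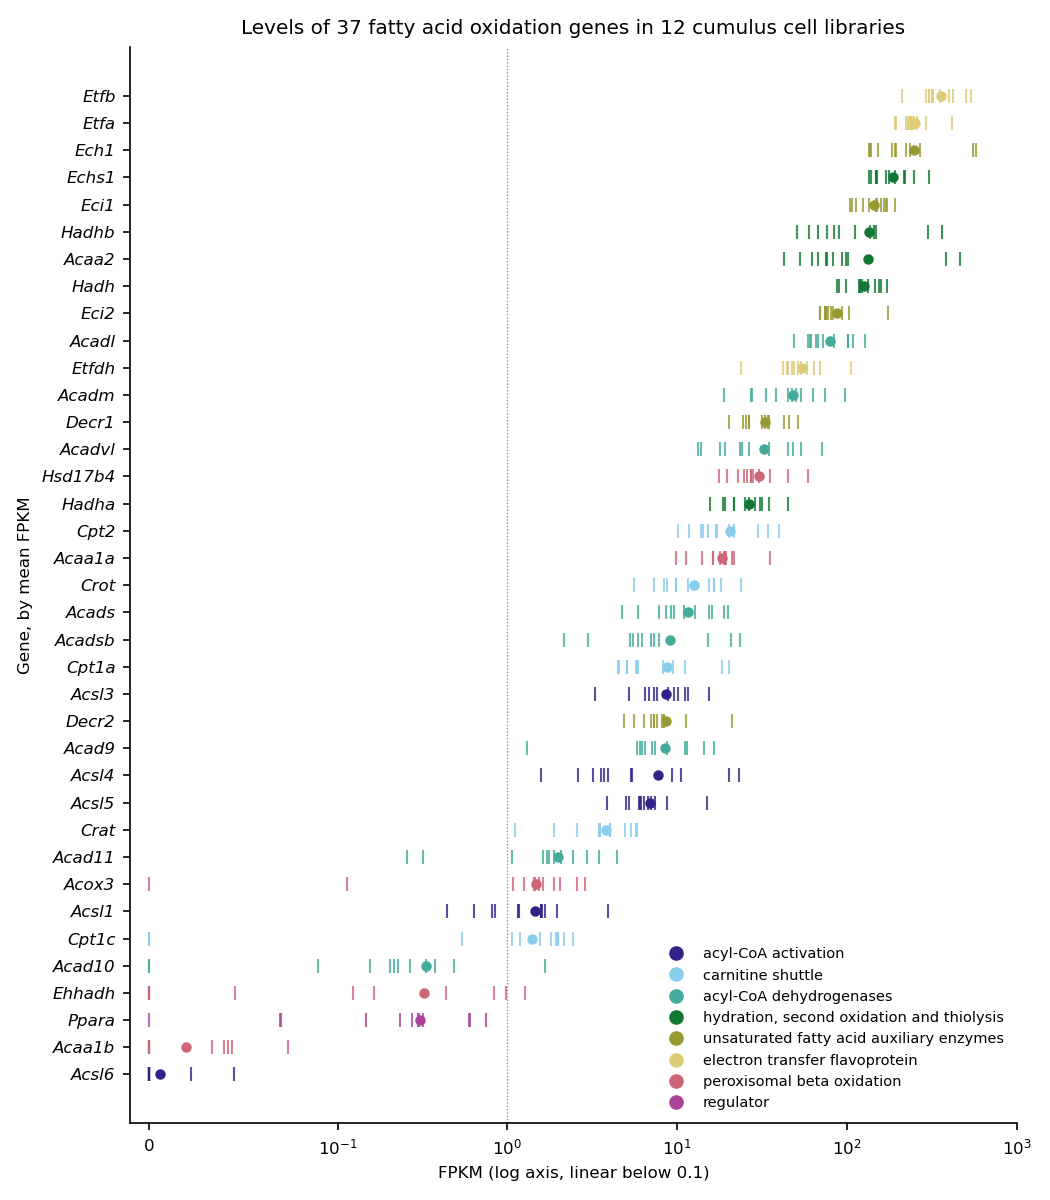
FPKM of the 37 fatty acid oxidation genes on a log axis, with a tick for each of the 12 libraries and a dot at their mean. Genes are ordered by mean and coloured by role. Etfb, Etfa, Ech1 and Echs1 lie at the top, and the means of Acsl6, Acaa1b, Ppara, Ehhadh and Acad10 lie under 1 FPKM.

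Etfb, the smaller subunit of the electron transfer flavoprotein, had the highest mean of all members, 357 FPKM over the 12 libraries. It was at 211, 318 and 355 FPKM in 3-month WT, at 322, 294 and 500 FPKM in 3-month KO, at 319, 305 and 397 FPKM in 6-month WT and at 305, 419 and 540 FPKM in 6-month KO. The 2 highest values belonged to the KO libraries that stood apart, and the groups overlapped at both ages. Ech1, which moves a double bond of dienoyl-CoA intermediates, led the auxiliary enzymes with a mean of 249 FPKM. It was at 193, 139 and 235 FPKM in 3-month WT and at 135, 194 and 554 FPKM in 3-month KO, and at 152, 137 and 222 FPKM in 6-month WT and 268, 184 and 575 FPKM in 6-month KO. Its groups overlapped as well. Echs1, the short-chain enoyl-CoA hydratase, averaged 187 FPKM and is described with the 3-month comparison.

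Among the ligases, Acsl3 was highest with a mean of 8.62 FPKM. Its libraries were at 9.63, 11.6 and 5.22 FPKM in 3-month WT, 8.86, 6.49 and 3.30 FPKM in 3-month KO, 7.64, 11.1 and 15.4 FPKM in 6-month WT and 6.79, 7.29 and 10.1 FPKM in 6-month KO. Acsl3 and Acsl4 were the only tested members with a lower fitted level in KO at both ages, without passing the test. Acsl6 was listed at 0 in 10 of 12 libraries and never passed 0.0453 FPKM. Of the CPT1 genes, Cpt1a had the highest level, at 4.47 to 20.3 FPKM. The form Cpt1c, best known from neurons, stayed between 0 and 2.43 FPKM, and the muscle form Cpt1b, which is no member, was listed at 0 in 10 of 12 libraries.

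The peroxisomal arm was uneven. Hsd17b4, the multifunctional enzyme that handles branched chains, averaged 30.3 FPKM. The related enzyme Ehhadh was at 0 in all 3 of the 3-month WT libraries, at 0, 0.984 and 0.0454 FPKM in 3-month KO, at 0.835, 0.433 and 1.27 FPKM in 6-month WT and at 0.163, 0.124 and 0 FPKM in 6-month KO. It reached 1 FPKM in 1 library, was not tested, and its 6-month WT values all lay above the 6-month KO values. Of the near-identical thiolases Acaa1a and Acaa1b, nearly all signal was assigned to Acaa1a, with Acaa1b at or below 0.0738 FPKM; how reads were split between the copies is uncertain. Ppara, the nuclear receptor that drives this programme in liver, was at 0.0696, 0.0702 and 0.295 FPKM in 3-month WT, 0, 0.146 and 0.597 FPKM in 3-month KO, 0.316, 0.232 and 0.751 FPKM in 6-month WT and 0.273, 0.303 and 0.606 FPKM in 6-month KO. Library 3 was the highest of each group. Its relative Pparg, no member, was at 18.4 to 271 FPKM, with the 2 lowest values, 19.6 and 18.4 FPKM, in the KO libraries that stood apart, and Ppard was at 0.422 FPKM or less.

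Of the 37 members, 32 reached 1 FPKM in at least 3 libraries and entered the fit; each of them did so in at least 8 libraries, so that none passed through a single group. The 5 left out were Acsl6, Acad10, Acaa1b, Ehhadh and Ppara, none of which reached 1 FPKM in more than 1 library. The kit did not mark strand. In the GENCODE annotation, the spans of 17 members overlapped that of another gene, among them Acadvl with Dvl2, Acaa1a with Myd88, Acad9 with Gm43079 and Echs1 with Paox, and reads from such overlaps cannot be assigned to a strand.

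**Figure D2:**
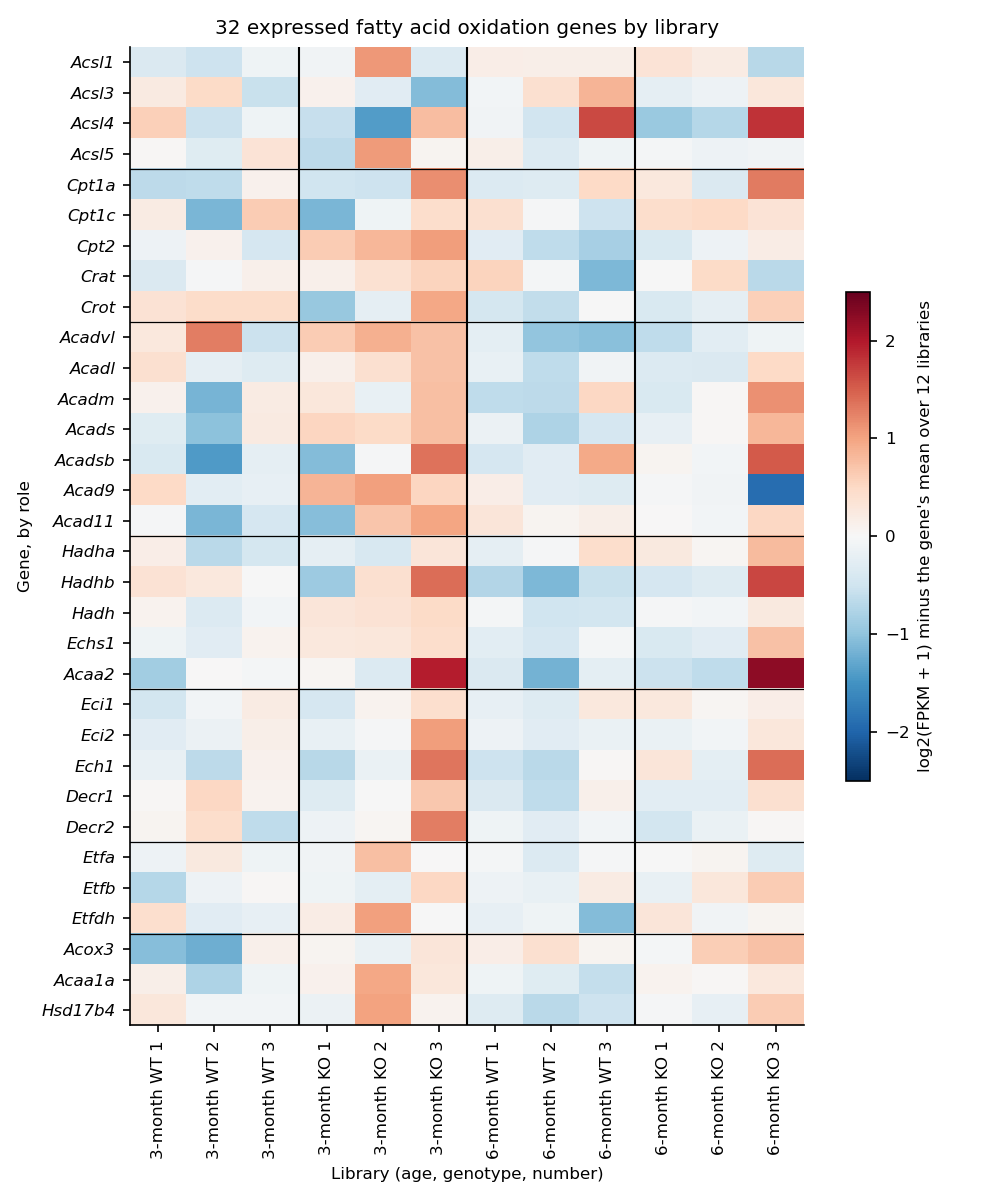
Log2(FPKM + 1) of each tested member in each of the 12 libraries minus that member's mean over the libraries, ordered by role and group. Library 3 of both KO groups is high for many matrix enzymes, including Acaa2, Hadhb and Ech1.

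Hadha and Hadhb encode the alpha and beta subunits of the trifunctional protein, which carries out the last 3 steps of the cycle on long chains. They lie head to head on chromosome 5, Hadha at chr5:30118304-30155162 on the minus strand and Hadhb at chr5:30155248-30184593 on the plus strand (GRCm38, GENCODE), with 85 bases between them. In RefSeq (GRCm38.p6) their start sites are 273 bases apart, and 228 of the 250 bases before each start are the same DNA read on opposite strands. The window is shown because it is shared by both subunits, whose levels are compared next. It is chr5:30155003-30155252, plus strand, 5′ to 3′, with GGGCGG or its reverse complement CCGCCC, the core of a GC box, in capitals.
Hadhb: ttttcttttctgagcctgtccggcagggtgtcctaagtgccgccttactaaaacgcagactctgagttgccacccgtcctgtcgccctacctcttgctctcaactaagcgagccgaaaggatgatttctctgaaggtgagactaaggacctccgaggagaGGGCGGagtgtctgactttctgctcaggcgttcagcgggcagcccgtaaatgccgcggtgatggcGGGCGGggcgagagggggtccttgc

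From this shared interval, Hadhb was the more abundant transcript in every library. The ratio of Hadhb to Hadha FPKM was 5.04, 8.77 and 6.00 in 3-month WT and 2.76, 7.74 and 9.46 in 3-month KO. At 6 months it was 3.14, 2.03 and 2.20 in WT and 2.76, 3.39 and 8.08 in KO. Both KO libraries that stood apart had high ratios, 9.46 and 8.08, and the 3-month WT values all lay above the 6-month WT values. The log2 ratio of Hadha to Hadhb, with 1 added to each FPKM, was -1.93 on average in WT and -2.28 in KO (difference -0.35, exact 2-sided permutation within ages p = 0.425, adjusted over 4 ratios 0.78). Without the 3 libraries high in markers of other cells this difference was 0.095. Hadha alone was at 28.7, 15.6 and 18.6 FPKM in 3-month WT, 21.5, 19.2 and 31.6 FPKM in 3-month KO, 21.6, 25.1 and 34.7 FPKM in 6-month WT, and 30.6, 26.5 and 44.7 FPKM in 6-month KO.

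The other partner genes gave no KO to WT difference past the threshold either, by the same exact permutation test. The difference in log2 ratio was -0.16 for Etfa to Etfb (permutation p = 0.585, adjusted 0.78), -0.10 for Acsl3 to Acsl4 (permutation p = 0.87, adjusted 0.87) and -0.27 for Cpt1a to Cpt2 (permutation p = 0.5, adjusted 0.78). The Cpt1a to Cpt2 difference ran from -0.50 to -0.075 with 1 library left out. The ratio of Etfb to Etfa FPKM was 2.02 and 2.76 in the KO libraries that stood apart and between 0.711 and 1.65 in the other 10. Acsl3 exceeded Acsl4 by up to 4.11-fold in the other KO libraries, but was at 0.311 and 0.437 of it in these KO libraries. Without the 3 libraries high in markers of other cells, the Etfa to Etfb difference was 0.13 and the Acsl3 to Acsl4 difference 0.51, both with the opposite sign.

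Library 3 of both KO groups exceeded all of the other 10 libraries for 12 of the 32 tested members, against 10.2% of the 11196 genes tested. The 12 were Cpt1a, Crot, Acadl, Acadm, Acads, Acadsb, Hadhb, Echs1, Acaa2, Eci2, Ech1 and Etfb. Acad10, not tested, was the only other member. Acaa2, the mitochondrial thiolase, was at 383 and 463 FPKM there and at 42.4 to 101 FPKM elsewhere, 5.04 and 6.09 times the median of the other 10. Hadhb was at 299 and 361 FPKM against 51.1 to 148 FPKM, and Acadsb, the short and branched chain dehydrogenase, was 3.41 and 3.87 times its median elsewhere. Cpt1a was at 18.4 and 20.3 FPKM against 4.47 to 11.1 FPKM. Acaa2, Acadsb and Cpt1a were singled out after their values were seen. Of the tested members, 3 were below all of the other 10 in 1 of these libraries: Acad9 at 1.31 FPKM in library 3 of 6-month KO, 0.181 times the median elsewhere, Acsl1 at 0.438 FPKM in the same library, and Acsl3 at 3.30 FPKM in library 3 of 3-month KO. In these 2 libraries the 12 granulosa and cumulus markers summed to 3713 and 4694 FPKM, against 5541 to 10262 FPKM in the other 10, and small RNA entries held 32% and 37.5% of the FPKM sum, against 0.263% to 25.7%. Listed oocyte markers summed to 64.1 and 267 FPKM there, against 1.35 to 16.8 FPKM in the other 10. Endothelial markers summed to 47.1 and 57.0 FPKM, against 4.18 to 23.5 FPKM. Blood and leukocyte markers summed to 868 and 1443 FPKM, against 4.49 to 1620 FPKM, the highest being library 3 of 6-month WT. The part of the theca, luteal and these other markers, and of the small RNA share, in the members' levels was not tested.

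**Figure D3:**
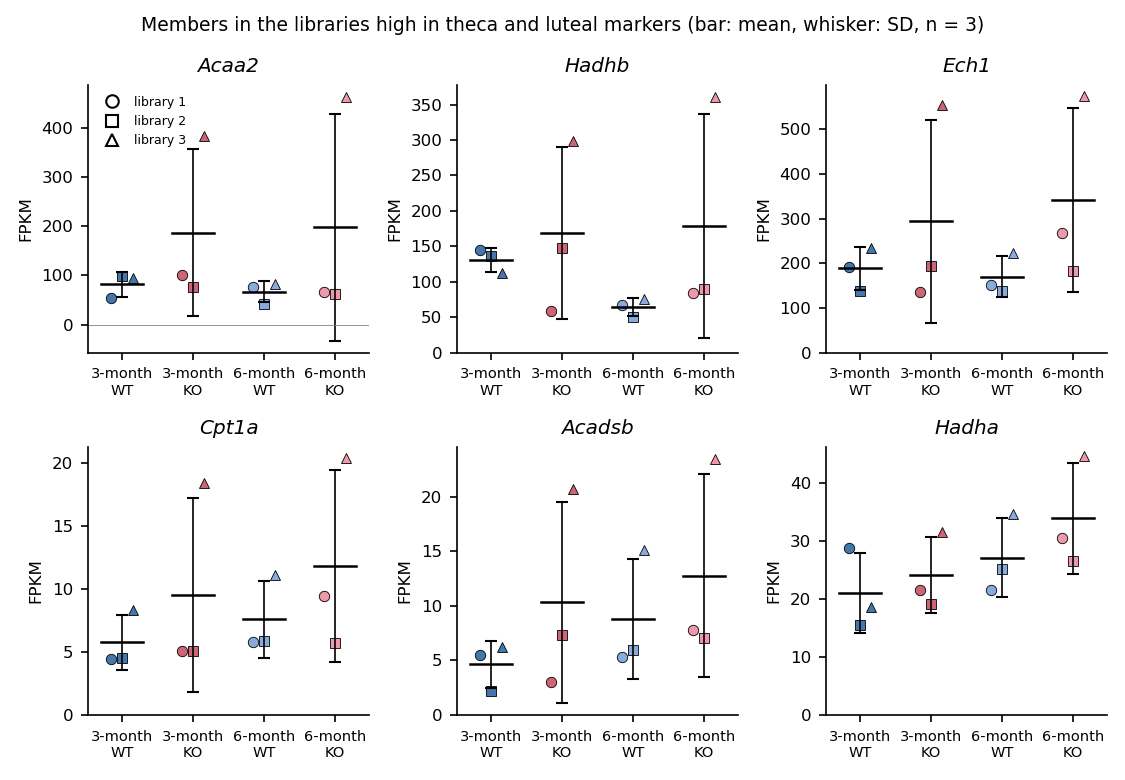
FPKM of 6 members in the 12 libraries, with the bar at the group mean and the whisker at 1 SD (n = 3). Library 3 of 3-month KO and of 6-month KO (triangles) lies above all other libraries for Acaa2, Hadhb, Ech1, Cpt1a and Acadsb, and Hadha shows a smaller spread.

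At 3 months, most members had a higher fitted level in KO than in WT, but none passed the test. The difference was above 0 for 27 of the 32 tested members, against 51.2% of all genes tested, and its median was 0.42 on the log2(FPKM + 1) scale, against 0.012 for all genes. With limma and Benjamini-Hochberg adjustment, 0 members had an adjusted p under 0.05, a threshold that 0.00893% of all genes (Clpp alone) passed. At an unadjusted p under 0.05, 4 members were higher (Cpt2, Acads, Hadh, Acaa1a) and 0 lower, against 3.35% and 3.45% of all genes. For 6 tested members every KO library exceeded every WT library (Cpt2, Crat, Acads, Acad9, Hadh, Echs1), and for 0 the reverse, against 5.02% and 5.22% of all genes. Without library 3 of the KO group the median was 0.25, with 22 members above 0 and 2 at an unadjusted p under 0.05. That count was also 2 without library 2 of WT or library 2 of KO. The fitted shares of all genes above come from all 12 libraries and are no background for these leave-out counts.

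By role, all 7 tested acyl-CoA dehydrogenases had a difference above 0 at 3 months, with a median of 0.73. The median was 0.43 for the 5 genes of hydration, second oxidation and thiolysis, 0.70 for the 3 tested peroxisomal genes, 0.37 for the 5 auxiliary enzymes and 0.33 for the 3 electron transfer genes. The carnitine shuttle had 3 of 5 genes above 0 with a median of 0.44. The ligases differed, with 2 of 4 above 0 and a median of -0.12. When FPKM were rescaled without small RNA entries, the median of all genes at 3 months became 0.12 and the median of the members 0.55, so that the members are read relative to that shift.

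Cpt2, which reforms acyl-CoA inside the matrix and lies at chr4:107903981-107923610 on the minus strand, had the smallest p at 3 months. It was at 17.1, 20.3 and 13.8 FPKM in WT and at 29.9, 34.3 and 39.7 FPKM in KO. The groups did not overlap, and the difference was 0.99 with SE 0.27 (limma adjusted p = 0.664). Acads, the short-chain acyl-CoA dehydrogenase at chr5:115110299-115119346 on the minus strand, was at 8.59, 4.76 and 12.8 FPKM in WT and at 16, 15.3 and 18.8 FPKM in KO. It too did not overlap (0.95, SE 0.38, limma adjusted p = 0.711), and the difference was 0.62 without library 2 of WT. The 250 bases before the RefSeq start of each, on the minus strand, are shown because these members led the comparison. They are chr4:107923590-107923839 and chr5:115119347-115119596, with the same GC box core in capitals.
Cpt2: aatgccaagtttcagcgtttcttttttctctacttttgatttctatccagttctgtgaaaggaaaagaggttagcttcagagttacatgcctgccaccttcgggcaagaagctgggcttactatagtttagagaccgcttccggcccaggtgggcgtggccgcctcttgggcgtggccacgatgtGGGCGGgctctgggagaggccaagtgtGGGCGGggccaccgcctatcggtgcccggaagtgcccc
Acads: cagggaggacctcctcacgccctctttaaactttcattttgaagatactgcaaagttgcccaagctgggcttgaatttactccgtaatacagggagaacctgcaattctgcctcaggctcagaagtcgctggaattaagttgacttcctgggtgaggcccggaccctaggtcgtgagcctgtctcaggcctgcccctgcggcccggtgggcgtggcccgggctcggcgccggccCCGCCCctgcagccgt

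The GC box core, GGGCGG on either strand, was in the 300-base RefSeq window (250 bases before to 50 after the start) of 26 of the 32 members that had such a window, against 35.7% of all 32851 windows. Member windows were also richer in G and C, with a median of 60.7% against 52.7%. The direct repeat DR1, AGGTCA written again after 1 further base, is the element that PPAR binds with RXR; it matched 0 of 32 members and 0.0396% of all windows. Its single copy AGGTCA, which is part of it and of the element TCAAGGTCA, matched 6 of 32 members, against 16.3%, and TCAAGGTCA, the element of the estrogen-related receptors, matched 1 (Acsl6), against 0.423%. CCAAT matched 16 members, against 37.4%, and GCGCATGC, the core bound by NRF1, matched 5, against 2.71%. For each motif a member counted if any of its windows matched (35 windows for 32 members), whereas the share of all is per window. These matches describe letters in a fixed window and are no evidence of binding.

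Hadh, the medium and short chain 3-hydroxyacyl-CoA dehydrogenase (chr3:131233419-131272101), was at 133, 98.2 and 119 FPKM in 3-month WT and at 154, 159 and 173 FPKM in 3-month KO. The groups were apart, with a difference of 0.48 (SE 0.22, limma adjusted p = 0.730). Acaa1a, the peroxisomal thiolase (chr9:119339676-119350299), was at 19.5, 9.85 and 16.4 FPKM in WT and at 19.1, 35.4 and 21.6 FPKM in KO. Its groups overlapped, with a difference of 0.70 (SE 0.32, limma adjusted p = 0.730) that was 0.43 without library 2 of WT and 0.44 without library 2 of KO. Echs1 was at 169, 149 and 192 FPKM in WT and at 218, 221 and 247 FPKM in KO. Its groups did not overlap, and the p of its difference did not pass 0.05 before adjustment.

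**Figure D4:**
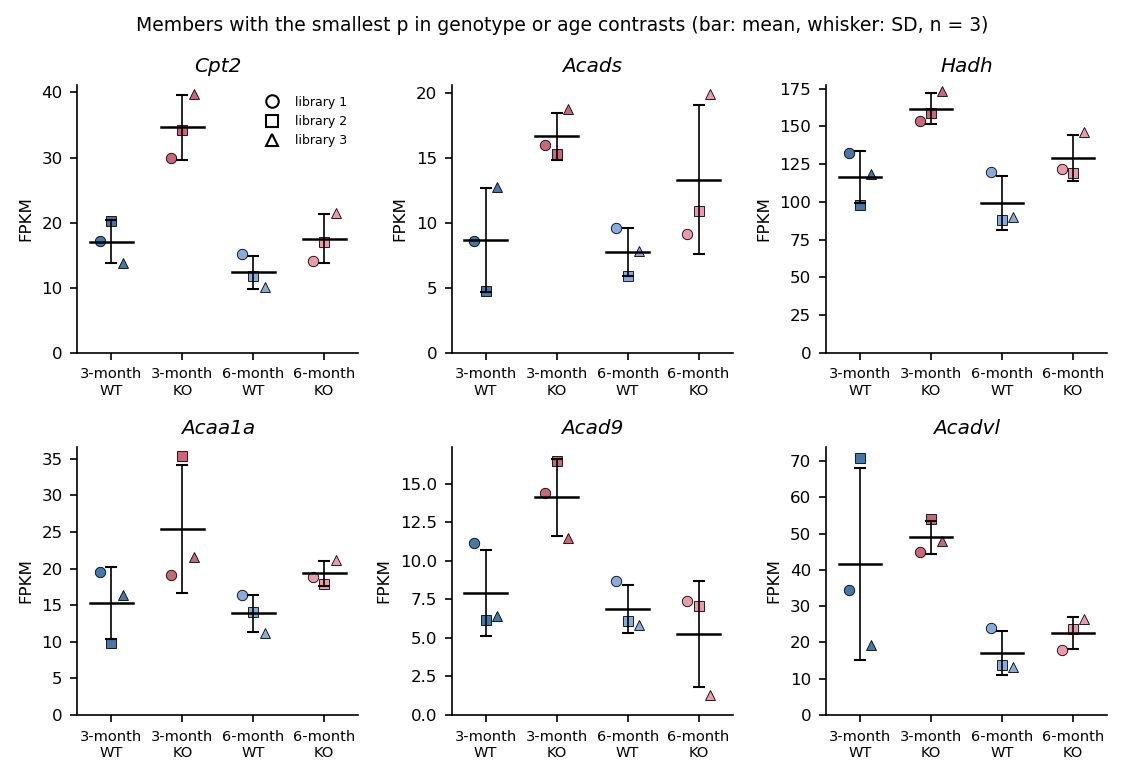
FPKM of Cpt2, Acads, Hadh, Acaa1a, Acad9 and Acadvl by group and library, with the bar at the mean and the whisker at 1 SD (n = 3). Each was among the members with the smallest unadjusted p in a genotype, age or interaction comparison. In Cpt2 the 3-month KO libraries, at 29.9 to 39.7 FPKM, lie above all other libraries.

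At 6 months the members again lay mostly above 0, by less. The difference was above 0 for 26 of the 32 tested members, against 51.5% of all genes tested, and the median was 0.29, against 0.014. By limma, 0 members passed an adjusted p of 0.05, against 0.0268% of all genes. At an unadjusted p under 0.05, 0 were higher and 0 lower, against 0.768% and 0.456% of all genes. With replicate numbers as a block 2 were higher at that p (Ech1, Hadhb). Without library 1 or library 2 of KO 1 member had such a p. The shares of all genes in these further fits are not given. For 4 tested members every KO library exceeded every WT library (Hadhb, Etfdh, Acaa1a, Hsd17b4), against 3.79% of all genes, and for 0 of the tested members the reverse, against 3.01%. The median was 0.085 without library 3 of the KO group (25 above 0) and 0.46 without library 1 of that group. By role the medians were 0.47 for the carnitine shuttle, 0.42 for the dehydrogenases, 0.39 for hydration to thiolysis, 0.46 for the peroxisomal genes and -0.25 for the ligases.

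Hadhb had the largest fitted difference at 6 months. It was at 67.8, 51.1 and 76.3 FPKM in WT and at 84.4, 89.8 and 361 FPKM in KO. The groups did not overlap, with a difference of 1.11 (SE 0.59, limma adjusted p = 1.0), but of 0.43 without library 3 of KO. Hsd17b4 (chr18:50128201-50196269) was at 22.9, 17.7 and 19.8 FPKM in WT and at 27.9, 24.9 and 44.9 FPKM in KO. Its groups were apart as well, with a difference of 0.63 (SE 0.34, limma adjusted p = 1.0), and of 0.38 without library 3 of KO. Hadh was at 120, 88 and 89.8 FPKM in WT and at 122, 119 and 147 FPKM in KO (0.39, SE 0.22, limma adjusted p = 1.0), and here the groups overlapped.

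Acads was at 9.63, 5.91 and 7.84 FPKM in 6-month WT and at 9.17, 11.0 and 19.9 FPKM in 6-month KO. The groups overlapped, and the difference of 0.66 (SE 0.38, limma adjusted p = 1.0) was 0.35 without library 3 of KO. Cpt2 was at 15.2, 11.7 and 10.1 FPKM in WT and at 14.1, 17.0 and 21.5 FPKM in KO, also overlapping. Acaa1a was at 16.3, 14.0 and 11.3 FPKM in WT and at 18.9, 17.9 and 21.2 FPKM in KO, without overlap. Etfdh, which hands electrons from the flavoprotein to ubiquinone, was at 44.4, 47.7 and 23.7 FPKM in WT and at 63.6, 48.6 and 53.9 FPKM in KO. Its groups were close to touching, at 47.7 and 48.6 FPKM.

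**Figure D5:**
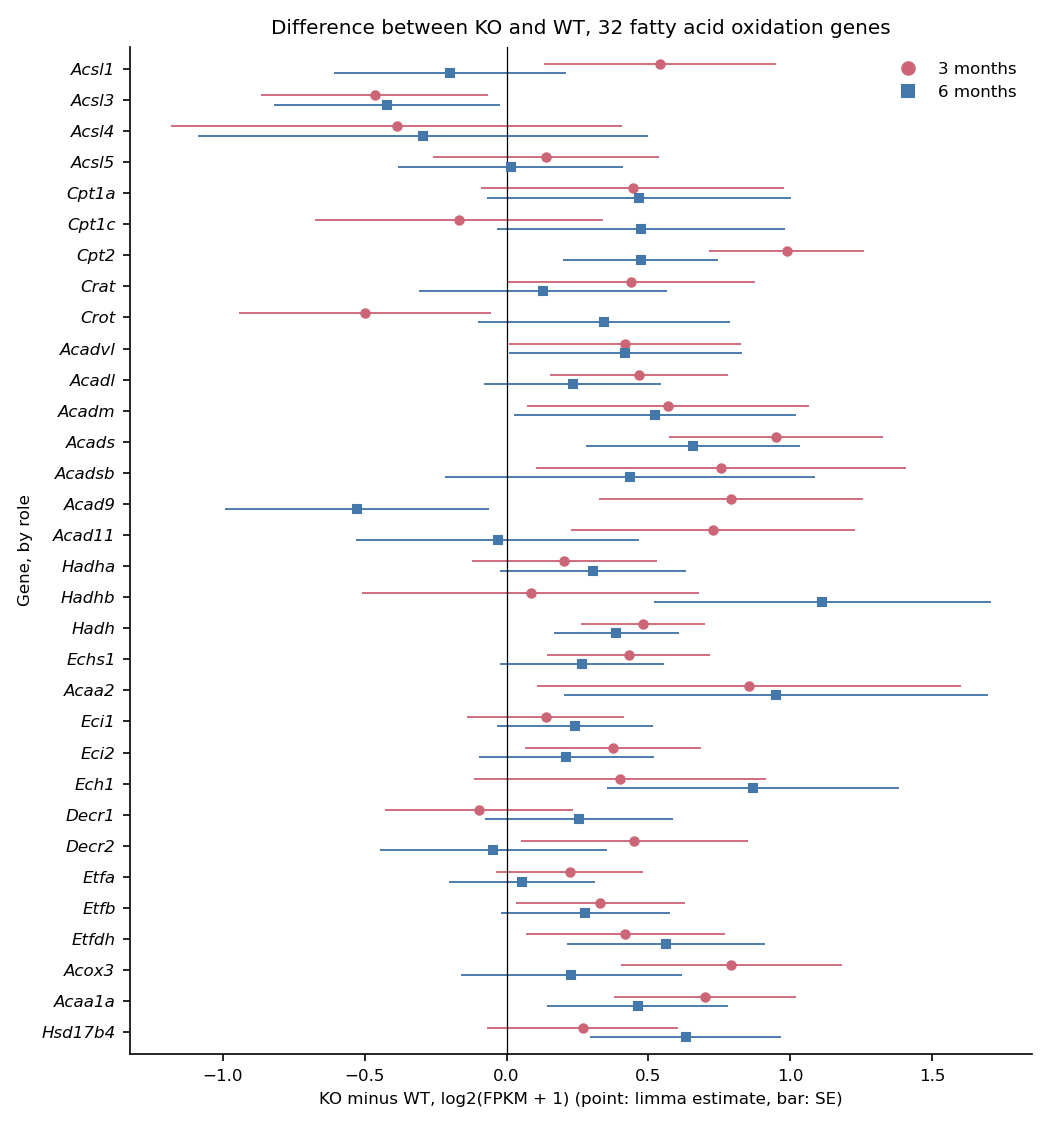
Difference between KO and WT in log2(FPKM + 1) for the 32 tested members at 3 months (circles) and 6 months (squares), with bars of 1 SE from limma. Most points lie above 0 at both ages, while Acsl3 and Acsl4 lie below 0 at both, and Acad9 and Crot lie on opposite sides of 0 at the 2 ages.

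Averaged over ages, 29 of 32 tested members were above 0, against 51.1% of all genes, with a median of 0.35. By limma 0 passed the adjusted threshold, against 0.0179% of all genes. At an unadjusted p under 0.05, 4 were higher in KO and 0 lower, against 3.33% and 2.63% of all genes. These 4 were Cpt2 (0.73, SE 0.19, limma adjusted p = 0.783), Acads (0.80, SE 0.27), Hadh (0.43, SE 0.16) and Acaa1a (0.58, SE 0.23). With replicate numbers as a block 7 members had an unadjusted p under 0.05, but the share of all genes in that fit is not given. Without the 3 libraries high in markers of other cells, the median was 0.18, with 26 above 0 and 2 at an unadjusted p under 0.05. That count was 8 without library 1 of 3-month KO and 3 to 5 without any other single library. The shares of all genes in these fits are not given, so the counts show only how far they moved.

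No member's genotype difference was shown to change with age. For the interaction, the 6-month difference minus the 3-month one, 14 of 32 members were above 0, against 50.8% of all genes, with a median of -0.073. By limma 0 members passed the adjusted threshold, against 0.00893% of all genes. At an unadjusted p under 0.05, 0 were higher and 0 lower, against 1.05% and 0.947% of all genes. With replicate numbers as a block 1 member, Acad9, had such a p, and the share of all genes in that fit is not given. The median was above 0 without library 2 of 3-month WT (0.025) and without library 1 of 6-month KO (0.039), and -0.27 without library 3 of 6-month KO. With 1 library left out, between 8 and 17 members were above 0, with 8 without library 3 of 6-month KO and 9 without library 2 of 6-month WT. Acad9, an assembly factor of respiratory complex I with dehydrogenase activity (chr3:36065979-36092853), came closest. It was at 11.1, 6.17 and 6.43 FPKM in 3-month WT and at 14.4, 16.5 and 11.5 FPKM in 3-month KO, and at 8.67, 6.07 and 5.83 FPKM in 6-month WT and 7.40, 7.07 and 1.31 FPKM in 6-month KO. KO was the higher group at 3 months without overlap, and the groups overlapped at 6 months. The interaction was -1.32 (SE 0.66, limma adjusted p = 1.0), and -0.71 without library 3 of 6-month KO.

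Crot, the carnitine octanoyltransferase of peroxisomes (chr5:8966033-8997324), had an interaction of 0.84 (SE 0.63), which was 0.40 and 1.37 without library 1 or 3 of 3-month KO and 0.55 without library 3 of 6-month KO. It was at 15.4, 16.5 and 16.5 FPKM in 3-month WT and at 5.56, 9.83 and 23.9 FPKM in 3-month KO, a group with a wide spread around a narrow WT. At 6 months it was at 8.37, 7.32 and 11.6 FPKM in WT and at 8.69, 9.88 and 18.1 FPKM in KO. Acsl1, a ligase of the outer mitochondrial membrane and endoplasmic reticulum, was at 0.811, 0.633 and 1.16 FPKM in 3-month WT and 1.17, 3.91 and 0.844 FPKM in 3-month KO. It was at 1.60, 1.57 and 1.58 FPKM in 6-month WT and 1.96, 1.67 and 0.438 FPKM in 6-month KO, with an interaction of -0.74 (SE 0.58), which was -0.31 without library 2 of 3-month KO and -0.42 without library 3 of 6-month KO.

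With age in WT, more members lay below 0 than above it. The 6-month minus 3-month difference was above 0 for 12 of 32, against 51.9% of all genes, with a median of -0.11, against 0.027. It was 0.0066 without library 3 of 3-month WT and -0.26 at the lowest. By limma 0 passed the adjusted threshold, against 0.00893% of all genes. At an unadjusted p under 0.05, 1 was higher (Acox3) and 1 lower (Acadvl), against 2.97% and 4.47% of all genes. Without library 2 of either WT group 0 members had such a p, and 1 had without library 1 of either WT group or library 3 of 6-month WT. The shares of all genes at that p come from the fit of all 12 libraries only. The groups did not overlap for 2 tested members that were higher at 6 months (Acsl1, Acad11) and 3 that were lower (Crot, Hadhb, Hsd17b4), against 7.94% and 7.81%; Ehhadh, not tested, was also higher without overlap.

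Acadvl, the very long chain dehydrogenase of the inner membrane (chr11:70010183-70015411), was at 34.5, 70.9 and 19.3 FPKM in 3-month WT and at 24.1, 13.9 and 13.3 FPKM in 6-month WT. The groups overlapped, with a difference of -1.09 (SE 0.41, limma adjusted p = 0.664) that was -0.62 without library 2 of 3-month WT, at 70.9 FPKM. Acox3, a peroxisomal acyl-CoA oxidase for branched chains (chr5:35583040-35615352), was at 0.114, 0 and 1.53 FPKM at 3 months and at 1.61, 2.05 and 1.43 FPKM at 6 months (0.93, SE 0.39, limma adjusted p = 0.664). Hadhb, at 145, 137 and 112 FPKM in 3-month WT, lay above every 6-month WT library, with a difference of -1.01 (SE 0.59). Crot differed by -0.78 (SE 0.44), with no overlap.

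With age in KO, the direction of the list turned on single libraries. The difference was above 0 for 12 of 32 members, against 50.8% of all genes, with a median of -0.19, against 0.010. Without library 3 of 3-month KO the median was 0.088 with 17 above 0, and without library 3 of 6-month KO it was -0.33 with 6 above 0. Without library 1 of 3-month KO it was -0.40 with 7 above 0. By limma 0 members passed the adjusted threshold, against 0.0179% of all genes. At an unadjusted p under 0.05, 0 were higher and 3 lower (Cpt2, Acad9, Acadvl), against 3.76% and 2.72% of all genes. Without library 3 of 6-month KO 5 members had such a p, and without library 2 of 3-month KO or library 1 of 6-month KO 2 had. For these leave-out fits the share of all genes is not given. The groups did not overlap for 4 tested members, all lower at 6 months (Cpt2, Acadvl, Acad9, Hadh), against 5.98% of all genes lower and 6.82% higher. The age and genotype comparisons use the same 12 libraries, so the 3-month KO values of Cpt2 and Acad9 enter both.

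Acadvl was at 44.8, 54.0 and 48.0 FPKM in 3-month KO and at 17.9, 23.6 and 26.5 FPKM in 6-month KO. The 3-month libraries were tight and lay above every 6-month one (-1.09, SE 0.41, limma adjusted p = 0.745). Cpt2 differed by -0.95 (SE 0.27, limma adjusted p = 0.745). Acad9 differed by -1.48 (SE 0.46, limma adjusted p = 0.745), and by -0.86 without library 3 of 6-month KO. Acadl, the long-chain dehydrogenase (chr1:66830839-66863277), led its role with a mean of 79.9 FPKM. It was at 83.9, 102 and 128 FPKM in 3-month KO and at 60.6, 59.3 and 109 FPKM in 6-month KO, beside 101, 65.8 and 61.4 FPKM in 3-month WT and 67.5, 48.9 and 72.5 FPKM in 6-month WT. Its age difference in KO was -0.49 (SE 0.31, limma adjusted p = 0.762), or -0.77 without library 3 of 6-month KO, and its groups overlapped.

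The remaining members are given by their group means. Acadm, the medium chain dehydrogenase, averaged 38.9 ± 17.3, 55.4 ± 17.9, 39.3 ± 20.5 and 58.5 ± 34.3 FPKM (SD, n = 3) in 3-month WT, 3-month KO, 6-month WT and 6-month KO. Over the same groups Etfa averaged 248, 298, 224 and 233 FPKM, Eci1 134, 149, 137 and 159 FPKM, Eci2 79.6, 111, 73.8 and 86.3 FPKM, and Decr1, the mitochondrial dienoyl-CoA reductase, 37.6, 36.2, 26.5 and 31.9 FPKM. Decr2, its peroxisomal counterpart, averaged 8.15, 12.2, 7.11 and 6.91 FPKM, and Acsl5 6.87, 8.60, 6.17 and 6.17 FPKM. Crat, the carnitine acetyltransferase, averaged 3.37 ± 0.73 FPKM in 3-month WT and 4.91 ± 0.87 FPKM in 3-month KO, with 1.11 to 5.77 FPKM across the 6-month libraries. Acad11 averaged 1.01, 2.74, 2.13 and 2.11 FPKM, and Acad10 stayed at or below 1.65 FPKM.

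Another 5 lists around the pathway were read in the same fit, and no gene of them passed the adjusted threshold for KO against WT at either age. At 3 months the difference was above 0 for 17 of 23 tested genes of other fatty acid oxidation steps (median 0.24), 14 of 19 of fatty acid uptake and lipid stores (0.41), 7 of 15 regulators (-0.0018), 4 of 8 PPAR targets and ketone body genes (0.047) and 12 of 17 of peroxisome biogenesis (0.22). At 6 months the counts were 16 of 23, 12 of 19, 9 of 15, 8 of 8 and 13 of 17. At an unadjusted p under 0.05 at 3 months, 4, 3, 1, 1 and 2 genes of these lists were higher and 2 regulators lower, against 3.35% and 3.45% of all genes. At 6 months 0, 0, 0, 1 and 1 genes were higher and 1 regulator lower, against 0.768% and 0.456% of all genes.

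Among the genes of these lists with the smallest p at 3 months, Plin3, a lipid droplet coat protein, was at 10.2, 3.94 and 10.1 FPKM in WT and 13.2, 24.2 and 19.3 FPKM in KO (1.19, SE 0.37, limma adjusted p = 0.664). Slc27a1, a fatty acid transporter, was at 3.57, 1.04 and 5.17 FPKM in WT and 6.93, 11.3 and 7.31 FPKM in KO (1.27, SE 0.41, limma adjusted p = 0.664). Neither pair of groups overlapped. Pcca, a propionyl-CoA carboxylase subunit that handles the end of odd chains, differed by 1.41 (SE 0.49), Pecr, a peroxisomal enoyl-CoA reductase, by 0.93 (SE 0.35), and Pex6, a gene of peroxisome biogenesis, by 1.01. Prkab2, a subunit of the energy sensor AMPK, was at 12.6, 4.61 and 3.06 FPKM in WT and 0.368, 1.42 and 1.31 FPKM in KO (-1.78, SE 0.52, limma adjusted p = 0.664). Sirt1, a deacetylase, differed by -0.89 (SE 0.34), and Pdk4, an inhibitor of pyruvate dehydrogenase, by -1.03 (SE 0.49). Prkab2 and Sirt1 values in KO all lay below those in WT.

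At 6 months Lpin1 differed by -0.98 (SE 0.41), Pex14 by 0.90 (SE 0.40), Pecr by 0.75, Slc27a1 by 0.72, the triglyceride lipase gene Pnpla2 by 0.68, Rxrb by 0.67 and Acat1 by 0.45, with a limma adjusted p of 1.0 for each.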

How the data were processed

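RNA of 100 pooled cumulus cells per mouse was amplified by Smart-Seq2, and Nextera XT libraries were sequenced as 75-base pairs, per the labels' protocols. Per the submitters' processing notes, reads were handled with Cufflinks 1.2.1, TopHat2 2.0.10, SAMtools 0.1.18, Bowtie2 2.1.0, FastQC and cutadapt on GRCm38/mm10; the sources used here do not give the annotation. The deposited values are FPKM per gene made by the authors. From these, log2(FPKM + 1) was fitted in limma 3.58.1 (R 4.3.3; eBayes with trend, 4 group means, 8 residual degrees of freedom) over the 11196 genes with at least 1 FPKM in at least 3 of 12 libraries. P-values are 2-sided and were adjusted by Benjamini-Hochberg over all 11196, with a threshold of 0.05. Fold changes on this scale understate those of low genes.

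The code was tested on simulated data. Members and lists were chosen with earlier results of these data known. Members given by library are the 4 with the smallest unadjusted p in each of 6 comparisons and the highest of each role; for the wider lists, the 2 smallest p per list and age are named, except for some genes that are not reported here. The FPKM table holds no read counts, so only relative depth (0.640 to 1) could be recovered from its low values, and no counting interval is given. The labels name separate mice, and 3 per group limits the precision. Alternatives were other pseudocounts, filters and scalings, each contrast fitted alone, a replicate block, and leaving out libraries. The deviations of same-numbered libraries had correlations of 0.16, 0.37 and 0.47 at 6 months and 0.11, 0.39 and 0.65 for age in KO. They were 0.09, -0.02 and 0.21 at 3 months and 0.03, 0.03 and 0.28 for age in WT. In each of these comparisons, only library 3 was the best match of its same-numbered counterpart in both directions. The labels give the numbers no meaning, and library 3 of several groups shares markers of other cells. Coordinates are from GENCODE on GRCm38.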

Additional observations from a re-analysis of the deposited data

How the results depend on the processing

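All 398 alternative values of the 24 named member differences kept their direction and stayed short of the adjusted threshold, and 0 members were called under any alternative run. Other filters, the replicate block and a contrast fitted alone cannot change a difference, so those values kept their direction by design. The differences were also named for the smallest p in these same data, which favours a kept direction. The kept direction is therefore no independent support. Leaving out each library in turn, the members' median ranged from 0.25 to 0.56 at 3 months, 0.085 to 0.46 at 6 months, 0.25 to 0.42 averaged over ages, -0.27 to 0.039 for the interaction, -0.26 to 0.0066 for age in WT and -0.40 to 0.088 for age in KO. In the same way the KO minus WT difference in log2 ratio ranged from -0.37 to 0.0045 for Etfa to Etfb, -0.39 to 0.36 for Acsl3 to Acsl4, -0.50 to -0.075 for Cpt1a to Cpt2 and -0.62 to -0.11 for Hadha to Hadhb. Without the 3 libraries high in markers of other cells the ratio differences were 0.095 for Hadha to Hadhb, 0.13 for Etfa to Etfb and 0.51 for Acsl3 to Acsl4, each of the opposite sign; the cause was not tested. Clpp at 3 months was no longer called with a pseudocount of 0.1 (-5.52) or no filter on low values (-5.03), and ranged from -5.56 to -4.63 without single libraries. The call was lost without library 2 of WT and without library 2 or 3 of KO. Fitted on its own libraries alone, Clpp at 6 months (-5.25) was not called, with fewer samples in the fit. The cause at 3 months was not tested. A block of replicate numbers cannot change the members' medians (0.42 at 3 months, 0.29 at 6 months), since each group holds each number once. With that block 0 members were called. An unadjusted p under 0.05 was then reached by 2 members at 6 months, 7 averaged over ages and 1 for the interaction. The share of all genes in the block fit is not given beside these counts. The values used carry no read counts that would set the depth behind each value, so a difference missing the threshold in 3 against 3 libraries does not show that levels were equal.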
